A study of Homo sapiens with 6 samples.

Results

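The heat shock protein (HSP) and J protein (DNAJ) families make up the main ATP-driven protein folding machinery of human cells. The genes described here are the rows of the deposited table whose gene name starts with HSPA, HSPB, HSP90, HSPD, HSPE, HSPH or DNAJ, 77 of 20260 complete rows. By the place where their proteins act, 43 were put in the cytosol or nucleus, 13 in the endoplasmic reticulum (ER) and 8 in the mitochondrion, and 13 were not assigned. That list of places was written by hand from textbook knowledge. The name rule also takes 3 genes that are neither chaperones of these families nor J proteins (HSPBP1, HSPBAP1 and HSPB11) and 3 read-through transcripts.

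RNA was measured in MDA-MB-231, a breast cancer line of the triple-negative kind that is long established. In the 3 ABI2 libraries the cells had been transfected with a plasmid carrying ABI2, an adaptor of the WAVE actin assembly complex. In the 3 control libraries they had received the empty vector, so transfection itself is common to both groups. The promoter of the plasmid and the share of cells that took it up were not stated in what was used here. Nor was it stated whether replicates were grown apart, so the p-values speak only of the spread between these libraries.

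HSP70 proteins grip exposed hydrophobic stretches of unfolded chains in a cycle driven by ATP. J proteins bring clients to HSP70 and start ATP hydrolysis, and nucleotide exchange factors, HSP110 proteins among them, end the cycle. HSP90 takes over clients such as kinases and steroid receptors, HSP60 with its lid HSP10 encloses chains in the mitochondrial matrix, and small HSPs hold unfolded chains without ATP. The transcription factor HSF1 drives many of the cytosolic genes under heat or other protein stress, and the unfolded protein response drives the ER genes; many tumour cells hold high levels of both.

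Promoter sequence is shown first for members whose levels the results turn on, with the letters of the heat shock element or the ER stress element marked. RefSeq promoter windows (GRCh38.p14, 250 bases before to 50 after each annotated start) were held for 68 of the 77 members, 89 windows in all. After the expression values were known, they were searched on both strands for 3 alternating units of the heat shock element, GAANNTTCNNGAA, and for the ER stress element, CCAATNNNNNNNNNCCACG. The heat shock element was found in 7 member windows (7.87%), against 172 of all 35116 windows (0.49%). The ER stress element was found for HSPA5 and HSP90B1, against 27 of all windows (0.0769%). The unfolded protein response element TGACGTGG was found for DNAJC10 alone, in 1 member window (1.12%), against 0.73% of all. The shorter paired unit GAANNTTC, which lies inside the heat shock element and is counted there too, was in 18 member windows (20.2%), against 6.77% of all. In the lines that follow, each of 110 bases read 5′ to 3′ on the gene's strand, capitals mark the letters searched; for HSPA1A they mark the paired unit, for HSPA5 and HSP90B1 the ER stress element, and otherwise the heat shock element.
HSPA8, chr11:123062131-123062240, minus strand: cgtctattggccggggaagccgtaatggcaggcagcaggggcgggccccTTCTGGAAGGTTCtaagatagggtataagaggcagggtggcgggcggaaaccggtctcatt
HSP90AB1, chr6:44247756-44247865, plus strand: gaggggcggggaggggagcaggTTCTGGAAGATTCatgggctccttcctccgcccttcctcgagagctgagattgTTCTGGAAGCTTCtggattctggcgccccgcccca
HSP90AA1, chr14:102087072-102087181, minus strand: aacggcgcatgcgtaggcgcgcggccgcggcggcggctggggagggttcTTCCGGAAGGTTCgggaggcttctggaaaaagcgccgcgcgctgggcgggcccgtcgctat
HSPA6, chr1:161524417-161524526, plus strand: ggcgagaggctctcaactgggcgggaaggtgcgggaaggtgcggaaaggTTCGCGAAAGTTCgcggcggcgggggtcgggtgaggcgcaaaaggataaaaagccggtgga
HSPA1A, chr6:31815386-31815495, plus strand: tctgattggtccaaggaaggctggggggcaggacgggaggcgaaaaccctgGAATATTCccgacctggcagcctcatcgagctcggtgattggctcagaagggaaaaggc
DNAJA1, chr9:33025213-33025322, plus strand: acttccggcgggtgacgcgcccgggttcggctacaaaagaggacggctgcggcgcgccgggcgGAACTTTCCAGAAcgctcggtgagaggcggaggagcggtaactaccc
DNAJB6, chr7:157336824-157336933, plus strand: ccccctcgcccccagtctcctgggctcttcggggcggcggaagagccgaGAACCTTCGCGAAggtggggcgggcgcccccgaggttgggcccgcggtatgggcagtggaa
HSPD1, chr2:197499981-197500090, minus strand: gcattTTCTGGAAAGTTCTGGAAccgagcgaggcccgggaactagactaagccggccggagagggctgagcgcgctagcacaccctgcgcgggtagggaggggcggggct
HSPA5, chr9:125241346-125241455, minus strand: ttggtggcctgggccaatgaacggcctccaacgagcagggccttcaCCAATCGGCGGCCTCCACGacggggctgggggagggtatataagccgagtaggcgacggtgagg
HSP90B1, chr12:103930275-103930384, plus strand: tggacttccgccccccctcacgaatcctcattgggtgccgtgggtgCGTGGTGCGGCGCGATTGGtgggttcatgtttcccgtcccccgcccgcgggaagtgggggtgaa
A match of letters is a description and was not tested as a binding site. The search allowed no mismatch in the fixed letters, so a member without a match may still hold a less exact element. Without a correction for GC content, the 7 members with all 3 units did not move one way. HSPA6 and DNAJB6 were higher in ABI2 libraries, HSPA8, HSP90AA1, DNAJA1 and HSPD1 were lower, and HSP90AB1 did not pass the test. With that correction, described below, DNAJB6 turned lower and HSPA8 and DNAJA1 did not pass. With transcript length added these calls returned to their first direction. Of members with the paired unit alone, HSPA1A, HSPA1B, HSPB1 and DNAJB1 were higher without a correction and DNAJC6 was lower. HSPA1L and DNAJB7 did not pass, and HSPB6, HSPB8 and DNAJA4 were not tested. With the GC correction HSPA1A, HSPA1B and DNAJB1 stayed higher, HSPB1 and DNAJC6 did not pass, and DNAJB7 was called higher at 1.27. With length added DNAJC6 was called higher at 0.35 and DNAJB1 did not pass.

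Library totals ran from 38.45 to 40.31 (in units of 1e6 counts). ABI2 itself stood at 222 ± 2.27 CPM in ABI2 libraries and 82.5 ± 1.2 CPM in control libraries (SD, n = 3 each), a log2 fold change of 1.43 ± 0.04 (SE; edgeR quasi-likelihood F test with Benjamini-Hochberg adjusted p = 1.23e-05). In TPM it was 134 ± 36.8 in ABI2 libraries and 16.7 ± 1.68 in control libraries, and the log2 fold change was 2.67 with a correction for GC content. That correction took the GC content, 41.7%, from an annotated ABI2 transcript of 22209 bases. Whether reads from the plasmid share it was not tested, nor was the gap between CPM and TPM, so 2.67 is not a better estimate. The 6 mesenchymal markers fixed for MDA-MB-231 (VIM, CD44, CAV1, AXL, MSN and PLAU) averaged 45.2 to 3301 TPM in ABI2 libraries and 93.5 to 2944 TPM in control libraries. The 7 luminal and epithelial markers summed to 8.79 to 10.3 TPM in ABI2 libraries and 8.32 to 9.004 TPM in control libraries: CDH1 and PGR were listed at 0 in every library, ESR1 was too low to test, and of the 4 tested GATA3 rose (log2 fold change 0.73; not called with the GC correction) and FOXA1, EPCAM and ERBB3 were not called. Of the 7 markers of other cell types, which summed to 0.698 to 0.864 TPM in ABI2 libraries and 1.37 to 2.63 TPM in control libraries, PTPRC, CD3E, CDH5 and COL2A1 were listed at 0, ALB was too low to test, and PECAM1 was called lower (log2 fold change -0.94). Their part in the results was not tested. Across the 13325 genes tested, 73.1% were called at an adjusted p below 0.05, 35.1% higher and 38.0% lower in ABI2 libraries, and fold changes followed the GC content of the transcript (Spearman's rho 0.78 and Pearson's r 0.72 over 13314 genes, a description with no p). The mean GC content of a counted read's gene was 53.1% ± 0.22 in ABI2 libraries and 50.3% ± 0.26 in control libraries (SD, n = 3 each). A second edgeR fit therefore removes each library's smooth trend with GC content; it called 52.0% of genes, 28.7% higher and 23.3% lower. With transcript length added to that correction, 50.3% were called, 27.5% higher and 22.8% lower. A true difference that runs with GC content is lost in these fits as well, and the cause of the trend was not tested.

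Chaperone transcripts took a smaller share of ABI2 libraries. The 77 members held 1.05%, 0.919% and 0.790% of counts in ABI2 replicates 1, 2 and 3, against 1.40%, 1.45% and 1.34% in control replicates 1, 2 and 3. Summed TPM (transcripts per 1e6, a level corrected for length) was 7312 ± 1173 in ABI2 libraries and 11054 ± 274 in control libraries (SD, n = 3 each). The groups did not overlap in either measure. A large part of this sum is a pair of genes: HSPA8 alone held 30.1% to 38.0% of member TPM in ABI2 libraries and 38.3% to 40.3% in control libraries, and HSP90AB1 held 15.5% to 18.7% in ABI2 libraries and 16.8% to 16.9% in control libraries. In bulk RNA, fewer cells with a transcript and less of it per cell cannot be told apart.

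Of the 77 members, 65 passed the filter on low counts and were tested. Among them 14 rose and 35 fell in ABI2 libraries (edgeR, adjusted p below 0.05), and 16 did not pass. That is 75.4% called against 73.1% of all genes, 21.5% higher against 35.1%, and 53.8% lower against 38.0%; the total is near the background. The median log2 fold change was -0.43 over the members and -0.01 over all genes tested. In 50 of 65 members the groups did not overlap, 76.9% against 77.9% of all genes. A called fall of at least 2-fold was seen in 21 members, 32.3% against 24.9% of all genes, and one of at least 4-fold in 8, 12.3% against 10.3%. A called rise of at least 2-fold was seen in HSPA6, HSPA1A and HSPA1B, 4.62% of members against 1.85% of all genes. With the GC correction 15 members were higher and 21 lower, with a median of -0.06 against 0.04 over all genes. That is 23.1% higher against 28.7% of all genes, and 32.3% lower against 23.3%. With length added, 14 were higher and 23 lower, 21.5% higher against 27.5% of all genes and 35.4% lower against 22.8%; that fit is named for a single member below where it changes the call. Between the uncorrected and the GC-corrected fit, 24 members kept call and direction (5 higher, 19 lower), 6 were called in opposite directions, and 19 were called in the uncorrected fit alone.

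**Figure D1:**
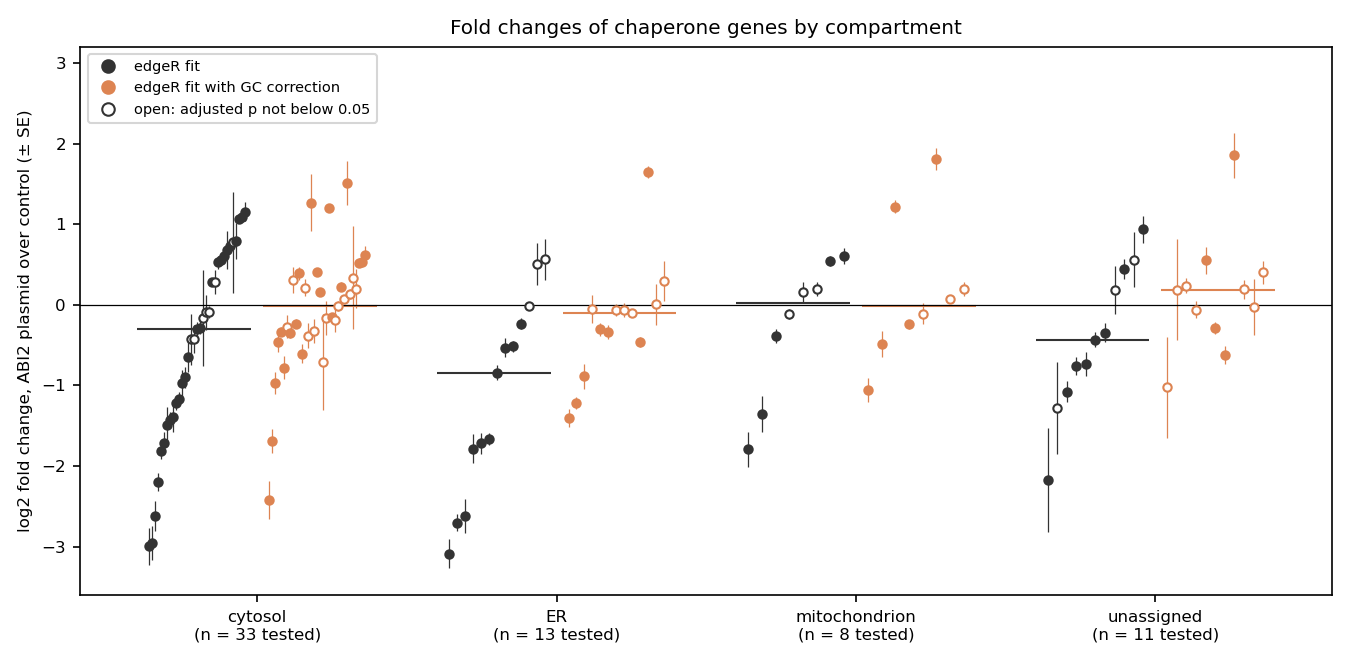
Log2 fold change (ABI2 plasmid over control, ± SE) of the 65 tested members by compartment, from the edgeR fit (dark) and the fit with GC correction (orange), each compartment sorted by the uncorrected value. Horizontal bars are medians, -0.30 in the cytosol, -0.84 in the ER and 0.02 in the mitochondrion without the correction and -0.02, -0.10 and -0.02 with it.

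The cytosolic set was mixed, with HSPA8, HSP90AA1 and the HSP110 genes lower and the inducible HSP70 genes higher. Of 33 tested cytosolic members 10 rose, 16 fell and 7 were not called (median log2 fold change -0.30). That is 30.3% higher against 35.1% of all genes, 48.5% lower against 38.0%, and 78.8% called against 73.1%, near the background. With the GC correction 10 were higher and 10 lower, with a median of -0.02. Those shares were 30.3% higher against 28.7% of all genes and 30.3% lower against 23.3%. Their summed TPM was 5855 ± 1102 in ABI2 libraries and 8680 ± 176 in control libraries (SD, n = 3 each). Without HSPA8 and HSP90AB1 it was 2080 ± 104 in ABI2 libraries and 2467 ± 120 in control libraries. HSP90AA1, which is still in that sum, held most of this remaining gap. It was at 48.6 ± 3.42 TPM in ABI2 libraries and 420 ± 112 TPM in control libraries.

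HSPA8 (ENSG00000109971, chr11:123057489-123063230, minus strand, GRCh38), the constitutive HSP70 (HSC70) that folds new chains and strips clathrin from vesicles, was the most abundant member and ranked 33 of all rows by TPM. Per library it had 3118, 2432 and 1794 CPM in the ABI2 libraries, against 3799.9, 3912 and 3764 CPM in the control libraries. Every ABI2 library was below every control library, and ABI2 replicate 3 was the lowest. Its log2 fold change of -0.64 ± 0.19 (edgeR adjusted p = 0.0201) passed narrowly: the adjusted p was 0.0523 without ABI2 replicate 2, 0.051 without control replicate 1, 0.0598 without control replicate 2 and 0.0826 with the GC correction, where the value was -0.39. With length added it was -0.56 and passed (adjusted p = 0.0292).

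The HSP90 pair of the cytosol split. HSP90AB1 (ENSG00000096384, chr6:44246166-44253888, plus strand), the constitutive beta form, had 2574, 1994 and 1553 CPM in the ABI2 libraries, against 2730.2, 2855 and 2651 CPM in the control libraries. The groups did not overlap, but the log2 fold change of -0.43 ± 0.17 did not pass (edgeR adjusted p = 0.0635); it was -0.63 (adjusted p = 0.0025) without ABI2 replicate 1 and -0.41 (adjusted p = 0.0307) with DESeq2, and -0.47 (adjusted p = 0.0462) with the GC and length correction. HSP90AA1 (ENSG00000080824, chr14:102080738-102139699, minus strand), the alpha form that stress induces, had 87.3, 113 and 101 CPM in the ABI2 libraries, against 784, 1031 and 579 CPM in the control libraries. All ABI2 libraries lay far below the control libraries, a 7.97-fold lower level and a log2 ratio of -2.99 ± 0.23 (edgeR adjusted p = 6.3e-05) and of -2.42 with the GC correction. Its transcript has 45.2% GC. The TPM ratio of HSP90AB1 to HSP90AA1 was 33.6, 23.4 and 20.9 in ABI2 libraries, against 4.49, 3.57 and 5.85 in control libraries, a log2 difference of 2.48 (exact permutation p = 0.1, the smallest that 3 against 3 allows; 0.12 adjusted over the 6 pairs compared).

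HSPA1A and HSPA1B, the stress-inducible HSP70 genes, encode nearly the same protein from near-identical copies, so reads may be split between them and each value is uncertain on its own. HSPA1B (ENSG00000204388, chr6:31827735-31830255, plus strand) had 468, 491 and 489 CPM in the ABI2 libraries, against 227, 224 and 239 CPM in the control libraries. HSPA1A (ENSG00000204389, chr6:31815464-31817946, plus strand) had 268, 282 and 274 CPM in the ABI2 libraries, against 127, 124 and 134 CPM in the control libraries. Their sum was 758 ± 19 CPM in ABI2 libraries and 359 ± 12.8 CPM in control libraries (SD, n = 3 each), 2.11-fold higher with little spread in either group. The log2 fold changes were 1.07 ± 0.05 and 1.09 ± 0.05 (edgeR adjusted p = 1.24e-05 for both), and 0.53 for both with the GC correction (adjusted p = 5.84e-05 and 7.71e-05). HSPA6, an HSP70 that is close to silent without stress, was low, with 186, 172 and 184 counts in ABI2 libraries against 90, 82 and 87 counts in control libraries. Its log2 fold change was 1.16 ± 0.12 (edgeR adjusted p = 0.000121), and 0.62 with the GC correction. HSPA6 resembles the HSPA1 genes in sequence, so its low count is uncertain in the same way. HSPA1L, the testis-enriched neighbour of HSPA1A, was at 1.37 ± 0.0663 CPM in ABI2 libraries and 1.46 ± 0.318 CPM in control libraries (SD, n = 3 each), with overlapping groups and no call (edgeR adjusted p = 0.712).

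**Figure D2:**
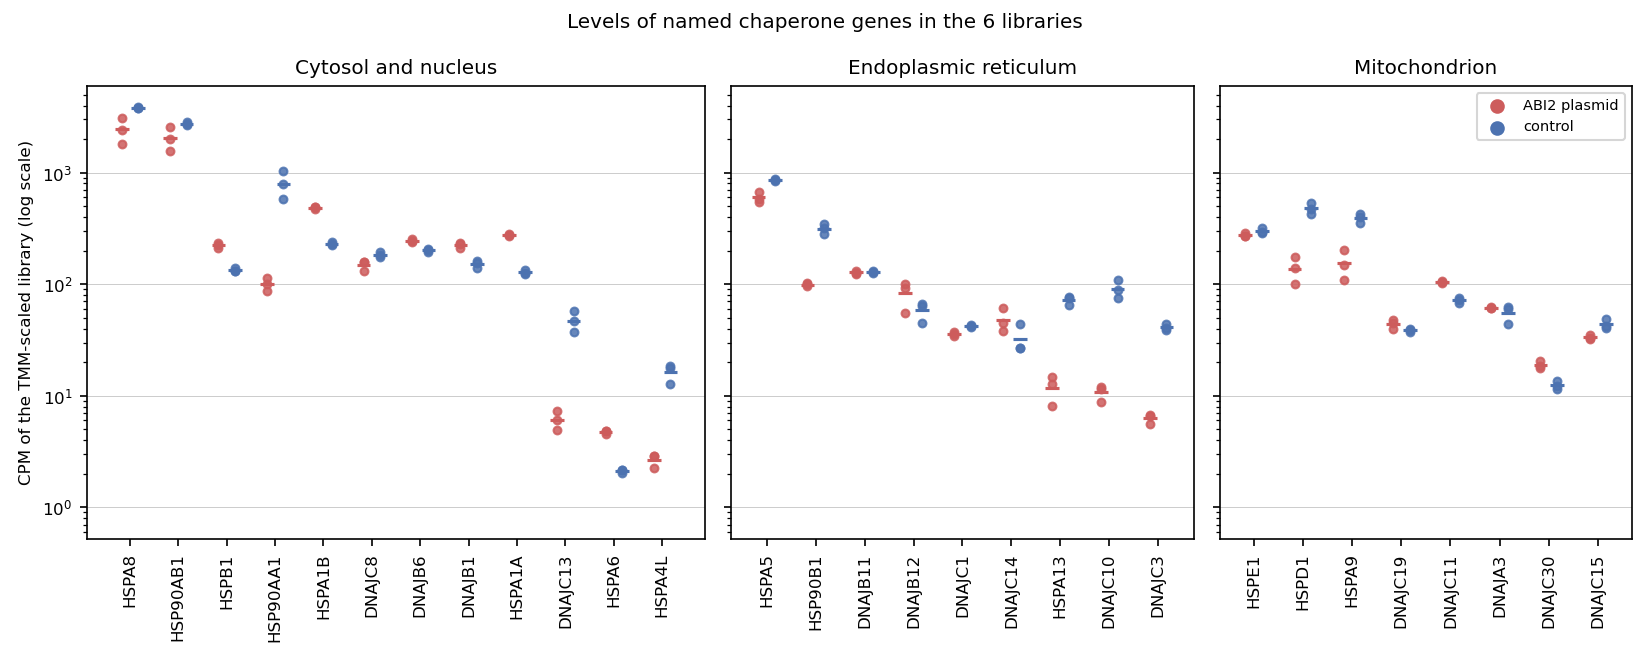
CPM of the members described by name, per library on a log scale, by compartment and ordered by mean TPM; points are the 3 ABI2 (red, left) and 3 control (blue, right) libraries and bars are means. HSP90AA1, HSPD1, HSPA13, DNAJC10 and DNAJC3 sit lower in every ABI2 library, HSPA1A and HSPA1B higher, and DNAJB11 has both groups between 123 and 132 CPM.

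Small HSPs were represented almost wholly by HSPB1 (HSP27), an ATP-independent holdase. It had 224, 235 and 211 CPM in the ABI2 libraries, against 131, 132 and 139 CPM in the control libraries, with no overlap. The log2 fold change was 0.73 ± 0.06 (edgeR adjusted p = 3.53e-05), and 0.13 with the GC correction, where it did not pass (adjusted p = 0.114); its transcript has 64.3% GC. HSPB9 was tested at 0.225 ± 0.157 CPM in ABI2 libraries and 0.252 ± 0.0323 CPM in control libraries without a call, and HSPB2, HSPB3, HSPB6, HSPB7 and HSPB8 had at most 10 counts in any library.

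The cytosolic exchange factors of the HSP110 type fell together. HSPH1 (HSP105) had 62, 63.4 and 56.4 CPM in the ABI2 libraries, against 216, 235 and 188 CPM in the control libraries. HSPA4 had 119, 100.1 and 96.6 CPM in the ABI2 libraries, against 274, 315 and 261 CPM in the control libraries. HSPA4L had 2.85, 2.86 and 2.24 CPM in the ABI2 libraries, against 17.6, 18.7 and 12.6 CPM in the control libraries. All 3 were lower in every ABI2 library, with log2 fold changes of -1.81 ± 0.09, -1.43 ± 0.10 and -2.62 ± 0.19 (edgeR adjusted p = 1.4e-05, 2.96e-05 and 2.84e-05). They kept the call with the GC correction, at -0.33, -0.35 and -0.97. HSPBP1, an unrelated exchange factor that the name rule takes, had 121, 113 and 68.3 CPM in the ABI2 libraries, against 51.5, 59.5 and 63.5 CPM in the control libraries, with the groups apart. Its rise of 0.80 (edgeR adjusted p = 0.0161) was lost without ABI2 replicate 1 (adjusted p = 0.0532), without control replicate 1 (0.0524) and with the GC correction (0.521). HSPA14, the HSP70 at the ribosome, fell, with a 2.32-fold lower mean CPM, a log2 change of -1.21 ± 0.09 (edgeR adjusted p = 2.75e-05) and -0.23 with the GC correction.

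Cytosolic J proteins went both ways. DNAJB1 (HSP40), the inducible partner of HSP70 in disaggregation, had 209, 231 and 235 CPM in the ABI2 libraries, against 156, 140.4 and 161 CPM in the control libraries. It rose by 0.56 ± 0.07 on the log2 scale (edgeR adjusted p = 0.000316), with no overlap, and by 0.22 with the GC correction; with length added the value was 0.05 and did not pass (adjusted p = 0.503). The TPM ratio of DNAJB1 to HSPA8 was 0.0469, 0.0678 and 0.0906 in ABI2 libraries, against 0.0288, 0.0254 and 0.0296 in control libraries (log2 difference 1.24, exact permutation p = 0.1, adjusted 0.12). DNAJA1, a farnesylated class A J protein, had 128, 94 and 70.9 CPM in the ABI2 libraries, against 271, 298 and 249.6 CPM in the control libraries. The ABI2 libraries were all lower and spread 1.80-fold among themselves; the log2 fold change of -1.48 ± 0.21 (edgeR adjusted p = 0.000867) became -0.27 with the GC correction and did not pass (adjusted p = 0.159), and with length added it was -0.51 and passed (adjusted p = 0.0311). DNAJA2, its close relative, had 196, 179 and 163 CPM in the ABI2 libraries, against 186, 194 and 191 CPM in the control libraries, overlapping groups with no call (edgeR adjusted p = 0.317), though the GC-corrected value was 1.20 (adjusted p = 2.81e-05).

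DNAJB6, which keeps polyglutamine proteins from aggregating, had 253, 243 and 241 CPM in the ABI2 libraries, against 208, 196 and 202 CPM in the control libraries. DNAJC8, a nuclear J protein of the spliceosome, had 159, 159 and 131 CPM in the ABI2 libraries, against 177, 194 and 182 CPM in the control libraries. The direction of both turned round with the GC correction. DNAJB6 was higher at 0.28 ± 0.05 (edgeR adjusted p = 0.00111) and lower at -0.15 with the GC correction (adjusted p = 0.0368), but higher again at 0.19 with length added (adjusted p = 0.00967). Its corrected values rest on an annotated transcript of 7992 bases. For its TPM DNAJB6 had fewer counts than HSPA5, whose annotated transcript has 3908 bases, so a shorter transcript may have been counted. DNAJC8 was lower at -0.30 ± 0.08 (edgeR adjusted p = 0.0152; 0.0577 without control replicate 2) and higher at 0.41 with the correction (adjusted p = 0.000852), and at 0.14 with length added it did not pass (adjusted p = 0.0856). DNAJC13 (RME-8), which works on endosomes, had 7.33, 6.01 and 4.9 CPM in the ABI2 libraries, against 46.9, 57.6 and 37.1 CPM in the control libraries. Its log2 fold change of -2.96 ± 0.21 (edgeR adjusted p = 3.26e-05) was, after that of HSP90AA1, the largest fall of the cytosolic set, and it was -1.69 with the GC correction.

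Among the other cytosolic members, DNAJC7, which binds both HSP70 and HSP90, had a log2 fold change of -0.97 ± 0.16 (-0.60 with the GC correction). DNAJB4 had -2.19 ± 0.11 (-0.46 with the correction) and DNAJC2, a J protein at the ribosome, -1.71 ± 0.14 (-0.78). These 3 passed in both fits (edgeR adjusted p from 1.36e-05 to 0.00138 without the correction). DNAJC5, the cysteine string protein, rose by 0.60 ± 0.05 (edgeR adjusted p = 5.99e-05) but had 0.08 with the correction (adjusted p = 0.14) and 0.27 with length added (adjusted p = 0.00248). HSPA2, an HSP70 of germ cells, was at 2.27 ± 0.595 CPM in ABI2 libraries and 1.42 ± 0.144 CPM in control libraries. It rose by 0.68 (edgeR adjusted p = 0.0339), a call that was lost when any library other than ABI2 replicate 1 was left out (adjusted p 0.0623 to 0.105). The HSPA2 value was 1.51 with the GC correction (edgeR adjusted p = 0.00339) and 1.63 with length added (adjusted p = 0.00275).

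In the ER no member rose. Of 13 tested, 10 fell and 3 were not called, 76.9% lower against 38.0% of all genes; the median log2 fold change was -0.84, against -0.01 over all genes tested. With the GC correction 1 was higher, 6 were lower (46.2% against 23.3% of all genes) and the median was -0.10. Summed TPM of ER members was 535 ± 16.7 in ABI2 libraries and 902 ± 23.5 in control libraries (SD, n = 3 each). Of 8 members that work in or with the lumen 7 fell, 87.5% against 38.0% of all genes (median -1.69). With the correction 6 were lower, 75.0% against 23.3%, and 1 was higher (median -0.40). Of the 5 other J proteins of the ER membrane 3 fell, 60.0% against 38.0% (median -0.53), and none was called with the correction. The ER transcripts had a median GC content of 41.2%, against 45.9% for the cytosolic and 47.2% for the mitochondrial members and 48.6% for all genes, and the part of GC content in the fall was not tested beyond the corrected fit.

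HSPA5 (BiP; ENSG00000044574, chr9:125234853-125241330, minus strand), the HSP70 of the ER lumen, which also holds the sensors of the unfolded protein response inactive, had 667, 586 and 550.5 CPM in the ABI2 libraries, against 856, 878 and 843 CPM in the control libraries. All ABI2 libraries were lower, with a log2 change of -0.51 ± 0.07 (edgeR adjusted p = 0.000536); with the GC correction the value was -0.10 and did not pass (adjusted p = 0.0681), and with length added it was -0.11 and passed (adjusted p = 0.0341). The TPM ratio of HSPA5 to HSPA8 differed by 0.17 on the log2 scale, with overlapping groups (exact permutation p = 0.4, adjusted 0.4). HSP90B1 (GRP94; ENSG00000166598, chr12:103930107-103953645, plus strand), the HSP90 of the lumen that folds integrins and Toll-like receptors, had 96, 101 and 101 CPM in the ABI2 libraries, against 319, 344 and 282 CPM in the control libraries. Its level was 3.17-fold lower in ABI2 libraries (-1.67 ± 0.08, edgeR adjusted p = 1.28e-05), and -0.34 with the correction (adjusted p = 0.0152). The ratio of HSP90B1 to HSP90AB1 was lower in ABI2 libraries (log2 difference -1.19, exact permutation p = 0.1, adjusted 0.12). That ratio has no GC correction. With the correction the log2 fold changes lay close together, at -0.34 for HSP90B1 and -0.33 for HSP90AB1.

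The 3 steepest ER falls were in DNAJC10, DNAJC3 and HSPA13. DNAJC10 (ERdj5; ENSG00000077232, chr2:182716041-182794464, plus strand), which reduces disulfides of proteins bound for degradation, had 11.4, 11.9 and 8.79 CPM in the ABI2 libraries, against 89.6, 109 and 74.7 CPM in the control libraries, 8.51-fold lower (-3.09 ± 0.18, edgeR adjusted p = 1.87e-05; -1.40 with the GC correction). DNAJC3 (P58IPK), which restrains the kinase PERK, had 6.58, 6.69 and 5.61 CPM in the ABI2 libraries, against 40.2, 43.6 and 39.2 CPM in the control libraries, with a log2 change of -2.70 ± 0.10 (edgeR adjusted p = 1.23e-05; -1.22 with the correction). HSPA13, a microsomal HSP70 relative, had 14.6, 12.6 and 8.16 CPM in the ABI2 libraries, against 75.5, 77 and 65.5 CPM in the control libraries, with a log2 change of -2.62 ± 0.21 (edgeR adjusted p = 5.46e-05; -0.89 with the correction). In all 3 the groups were far apart and the corrected fall still exceeded its error. DNAJB9 (ERdj4), a feedback partner of BiP, fell by 1.71 ± 0.13 on the log2 scale (-0.30 with the correction; edgeR adjusted p = 3.28e-05 and 0.0162).

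DNAJB11 (ERdj3), a soluble co-chaperone of BiP, had nearly the same values in both groups. It had 127, 132 and 123 CPM in the ABI2 libraries, against 127, 132 and 128 CPM in the control libraries, and its log2 fold change of -0.02 ± 0.05 did not pass (edgeR adjusted p = 0.768). Its transcript has 37.8% GC, and the corrected value was 1.65 (adjusted p = 2.81e-05), the single ER member called higher in that fit. That GC content is from an annotated transcript of 4079 bases. For its TPM DNAJB11 had fewer counts than HSPA5, whose annotated transcript has 3908 bases, so a shorter transcript may have been counted. Whether that one shares the GC content was not tested, so the value of 1.65 is uncertain. DNAJC1 (ERdj1), a membrane J protein that binds ribosomes, had 35.5, 37.4 and 34.6 CPM in the ABI2 libraries, against 42.6, 40.9 and 42.5 CPM in the control libraries. Its log2 fold change of -0.23 ± 0.06 (edgeR adjusted p = 0.0141; 0.064 without control replicate 1) was -0.46 with the correction. Of the membrane J proteins, DNAJB12, which hands misfolded membrane proteins to degradation, was at 54.6, 92.1 and 101 CPM in the ABI2 libraries, against 45.1, 63.9 and 65.8 CPM in the control libraries. DNAJC14 was at 44.8, 38.1 and 61.6 CPM in the ABI2 libraries, against 27, 27 and 43.5 CPM in the control libraries. In both the groups overlapped and the test did not pass (edgeR adjusted p = 0.125 and 0.0868); DNAJB12 passed without ABI2 replicate 1 (log2 fold change 0.73, adjusted p = 0.0104) and DNAJC14 without control replicate 3 (0.83, adjusted p = 0.0157).

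Mitochondrial members split: the matrix chaperones HSPD1 and HSPA9 fell, and J proteins went both ways. Of 8 tested, 2 rose, 3 fell and 3 were not called (median log2 fold change 0.02). The shares, 25.0% higher and 37.5% lower, were at or under those of all genes (35.1% and 38.0%). With the GC correction 2 were higher, 25.0% against 28.7% of all genes. The 3 lower in that fit were 37.5% against 23.3%, above the share of all genes. With length added 25.0% were lower against 22.8%. Summed TPM was 819 ± 62.9 in ABI2 libraries and 1338 ± 80.1 in control libraries (SD, n = 3 each). HSPD1 (HSP60; ENSG00000144381, chr2:197486581-197516737, minus strand), the chaperonin of the matrix, had 176, 139.5 and 99.5 CPM in the ABI2 libraries, against 473, 538 and 427 CPM in the control libraries. It fell by 1.79 ± 0.21 on the log2 scale (edgeR adjusted p = 0.000372; -1.05 with the GC correction, adjusted p = 0.00196). HSPE1 (HSP10; ENSG00000115541, chr2:197499994-197503457, plus strand), its lid, had 288, 270.1 and 271 CPM in the ABI2 libraries, against 291, 321 and 286 CPM in the control libraries, overlapping groups without a call (log2 fold change -0.12 ± 0.06, edgeR adjusted p = 0.116; -0.24 and adjusted p = 0.0108 with the correction).

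The chaperonin and its lid lie head to head on chromosome 2, and their ratio had no overlap between the groups. HSPD1 over HSPE1 in TPM was 0.243, 0.203 and 0.152 in ABI2 libraries, against 0.661, 0.699 and 0.625 in control libraries, a log2 difference of -1.76 (exact permutation p = 0.1, adjusted 0.12). HSPE1 overlaps its read-through row HSPE1-MOB4 on the same strand and HSPD1 on the other, so with no strand setting given their reads may be shared. HSPA9 (mortalin), the matrix HSP70 that pulls in imported chains, had 204, 149 and 109.95 CPM in the ABI2 libraries, against 404, 422 and 356 CPM in the control libraries. It fell by 1.35 ± 0.22 on the log2 scale (edgeR adjusted p = 0.0017), with a value of -0.48 in the GC-corrected fit (adjusted p = 0.0455); with length added it was -0.44 and did not pass (adjusted p = 0.0581). Its TPM ratio to HSPA8 was lower too, by a log2 difference of -0.71 (exact permutation p = 0.1, adjusted 0.12). That ratio has no GC correction, with which the log2 fold changes were -0.48 for HSPA9 and -0.39 for HSPA8.

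The J proteins of the mitochondrion did not move as one. DNAJC11, bound to the MICOS complex of the cristae, had 104, 103 and 106 CPM in the ABI2 libraries, against 67.5, 72.2 and 75.5 CPM in the control libraries and rose by 0.54 ± 0.06 (edgeR adjusted p = 0.000141; 0.07 with the correction, adjusted p = 0.293). DNAJC30 had 17.9, 18.6 and 20.4 CPM in the ABI2 libraries, against 11.6, 12.2 and 13.6 CPM in the control libraries and rose by 0.61 ± 0.10 (edgeR adjusted p = 0.00131; 0.19 with the correction, adjusted p = 0.0975). Both had groups apart, and neither passed with the GC correction. DNAJC19, the counterpart of yeast Tim14, which in yeast drives the HSP70 of the import motor, had 39.9, 44.5 and 48.2 CPM in the ABI2 libraries, against 37.3, 39.7 and 38.6 CPM in the control libraries; at 0.20 ± 0.08 it did not pass (edgeR adjusted p = 0.0693; 0.0176 without ABI2 replicate 1), and it was 1.81 with the correction (adjusted p = 9.1e-05). DNAJC15 (MCJ), its inner membrane relative, had 33.2, 35.2 and 32.5 CPM in the ABI2 libraries, against 42, 48.8 and 40.8 CPM in the control libraries; its log2 fold change of -0.38 ± 0.09 (edgeR adjusted p = 0.00603) turned to 1.22 with the correction (adjusted p = 6.51e-05). DNAJA3 (TID1) was at 61.4, 60.9 and 63 CPM in the ABI2 libraries, against 43.9, 59.9 and 62.2 CPM in the control libraries, with overlapping groups and no call (edgeR adjusted p = 0.305).

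Of 11 tested members with no assigned place 2 rose and 6 fell, 72.7% called against 73.1% of all genes. DNAJC4 rose by 0.94 ± 0.17 and HSPBAP1 fell by 1.08 ± 0.13 on the log2 scale (edgeR adjusted p = 0.00161 and 0.000249), and neither passed with the GC correction. HSPA12A, a distant HSP70 relative, fell by 0.43 ± 0.09 on the log2 scale (edgeR adjusted p = 0.00425; -0.29 with the correction, and -0.10 with length added, where it did not pass, adjusted p = 0.259). HSPB11, which is a subunit of intraflagellar transport and no small HSP, fell by 0.35 on the log2 scale (edgeR adjusted p = 0.0346), a call lost without either of ABI2 replicates 1 and 2 or control replicates 1 and 2 (adjusted p 0.0811 to 0.122). DNAJC27 was called lower at -2.17 (edgeR adjusted p = 0.0206) although its groups overlapped, with 0.36, 0.788 and 0.369 CPM in the ABI2 libraries, against 3.28, 2.87 and 0.676 CPM in the control libraries; the adjusted p was 0.0587 to 0.0772 when ABI2 replicate 1 or 3 or control replicate 1 or 2 was left out.

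GC content sorted the members much as it sorted all genes. Over the 65 tested members Spearman's rho between GC content and log2 fold change was 0.74 and Pearson's r 0.74; it was 0.78 and 0.77 over the 33 cytosolic and 0.78 and 0.78 over the 13 ER members. These are across genes measured in the same 6 libraries, which are not independent, and no p is given. Below 45% GC, 26 of 33 members fell and 1 (HSPA2) rose; the median log2 fold change was -1.35. That is 78.8% lower against 80.9% of the 4920 genes in that band, whose median was -1.31. From 45% to 55%, 9 of 18 fell (against 23.3% of the 4288 genes there) and 4 rose (22.2% against 36.9%), with a median of -0.26 against 0.13. At 55% and above, 9 of 14 rose (64.3% against 71.5% of 4106 genes) and none fell (against 1.75%), with a median of 0.67 against 0.60. Among members with an assigned compartment, HSP90AA1, DNAJC13, DNAJC10, DNAJC3 and HSPD1 lay lowest for their GC content by the corrected values. DNAJC19, DNAJB11, HSPA2, DNAJB7, DNAJC15 and DNAJA2 lay highest, HSPA2 and DNAJB7 with few counts and DNAJB11 by a GC content that is uncertain.

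**Figure D3:**
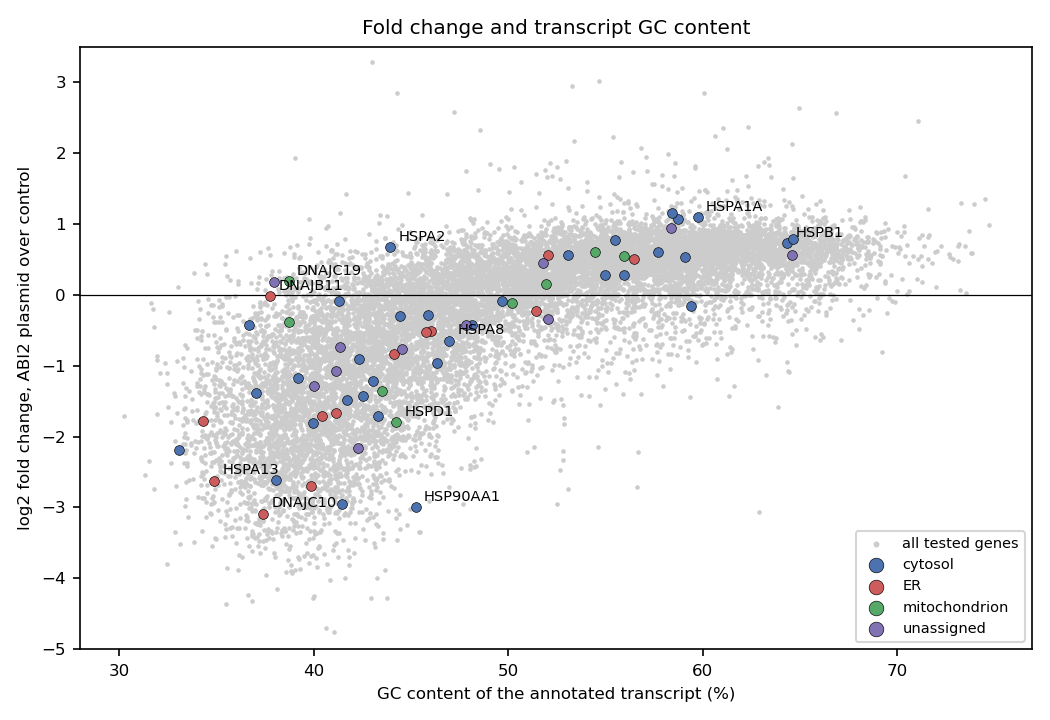
Log2 fold change (ABI2 plasmid over control) against GC content of the annotated transcript, in percent, for the 65 tested members (coloured by compartment) over the other tested genes (grey). DNAJC10 lies at 37.4% GC and -3.09, HSPA1A at 59.7% GC and 1.09, and DNAJC19 and DNAJB11 lie near 0 below 40% GC.

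In several of the abundant chaperones, though not in all, the ABI2 libraries differed more among themselves than the control libraries did. Of 39 members with at least 10 CPM in every library, 9 had a highest-to-lowest ratio above 1.5 among ABI2 libraries (23.1%, against 9.17% of 7492 genes at that level) and 2 among control libraries (5.13%, against 4.67%). The median ratio over the 39 was 1.17 in ABI2 libraries and 1.13 in control libraries, against 1.13 and 1.10 over all genes at that level. ABI2 replicate 1 was highest and ABI2 replicate 3 lowest in 17 of the 39 (43.6%, against 24.7% of all). The ratio was 1.74 in ABI2 libraries and 1.04 in control libraries for HSPA8, 1.66 and 1.08 for HSP90AB1, 1.76 and 1.26 for HSPD1, and 1.85 and 1.19 for HSPA9. Other abundant members had the wider ratio in the control libraries. It was 1.29 in ABI2 libraries and 1.78 in control libraries for HSP90AA1, 1.06 and 1.22 for HSP90B1, and 1.07 and 1.12 for HSPE1. In HSPA1B it was 1.05 in ABI2 libraries and 1.06 in control libraries, so the inducible HSP70 genes did not share this order. The source of the spread was not tested.

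**Figure D4:**
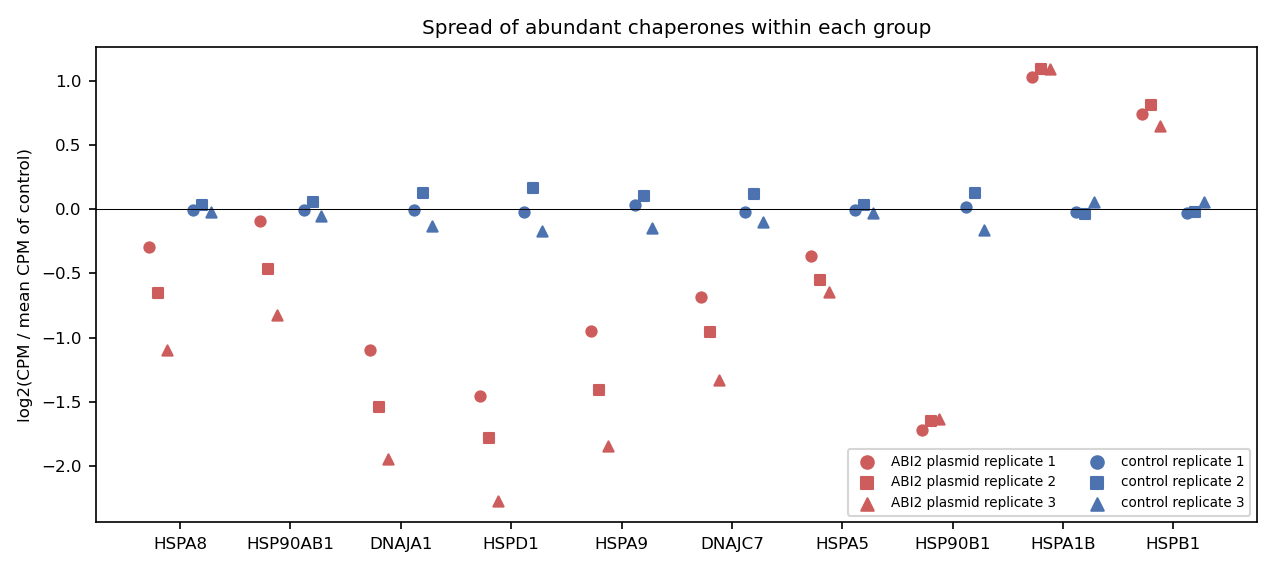
Log2 of each library's CPM over the mean CPM of the control libraries, for 10 abundant members; red symbols are ABI2 replicates 1 to 3 and blue symbols control replicates 1 to 3. In HSPA8, HSP90AB1, DNAJA1, HSPD1, HSPA9 and DNAJC7 ABI2 replicate 1 is the highest and ABI2 replicate 3 the lowest of the ABI2 libraries, while HSP90B1, HSPA1B and HSPB1 have the 3 ABI2 libraries close together.

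Genes that work with the members were read from hand-written lists. Of 3 heat shock factors, HSF1, which drives many of the cytosolic members under stress, was at 181 ± 21.2 CPM in ABI2 libraries and 98.5 ± 12.3 CPM in control libraries. HSF1 rose by 0.87 ± 0.12 (edgeR adjusted p = 0.000473), and by 0.27 with the GC correction (adjusted p = 0.0358). HSF2 was at 5.11 ± 1.28 CPM in ABI2 libraries and 26.4 ± 1.82 CPM in control libraries and fell by 2.37 ± 0.19 on the log2 scale (edgeR adjusted p = 3.86e-05; -0.97 with the correction). HSF4 was at 9.33 ± 1.35 CPM in ABI2 libraries and 10.5 ± 1.01 CPM in control libraries, with a log2 fold change of -0.18 that did not pass (edgeR adjusted p = 0.291); it was called lower at -0.78 with the correction (adjusted p = 0.00338). Of 13 members usually counted as heat shock response genes, 4 rose, 7 fell and 2 did not pass (median log2 fold change -0.64, 3 higher and 6 lower with the correction, and 2 higher and 9 lower with length added). That is 30.8% higher and 53.8% lower, against 35.1% and 38.0% of all genes. With the correction it was 23.1% and 46.2%, against 28.7% and 23.3%. With length added it was 15.4% and 69.2%, against 27.5% and 22.8%.

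Of 21 cytosolic co-chaperones of HSP70 and HSP90, 11 rose (52.4%) and 9 fell (42.9%), with a median of 0.28. With the correction 13 were higher (61.9%) and 3 lower (14.3%), and with length added 10 (47.6%) and 3 (14.3%). FKBP4, the immunophilin of steroid receptor complexes, rose by 0.88 ± 0.05 (0.68 with the correction), and the HSP70 regulator BAG4 and the HSP90 adaptor SUGT1 fell, with log2 fold changes of -1.79 ± 0.12 and -1.54 ± 0.11 (-0.33 and 0.15 with the correction; with length added SUGT1 was called higher at 0.51). Of 14 ER folding partners 7 rose and 3 fell, with a median of 0.37 (5 higher and 1 lower with the correction, 4 and 2 with length added) and a median GC content of 53.4%; the lectin chaperone CALR rose by 0.58 ± 0.05 and the oxidase ERO1A fell by 1.20 ± 0.05 (0.19 and 0.40 with the correction; with length added CALR was at -0.01 and did not pass). Of 10 mitochondrial folding partners 8 rose and 2 fell, with a median of 0.58 (8 higher and none lower with the correction, 4 and none with length added). Among these TRAP1, the HSP90 of mitochondria, was at 259 ± 18.6 CPM in ABI2 libraries and 122 ± 6.68 CPM in control libraries and rose by 1.08 ± 0.07 (0.61 with the correction), and GRPEL2, an exchange factor of HSPA9, fell by 1.45 ± 0.11 (0.12). Of 14 subunits of the TRiC chaperonin and prefoldin 5 rose and 7 fell, with a median of -0.18 (8 higher and 2 lower with the correction, 5 and 3 with length added); CCT7 rose by 0.80 ± 0.04 and VBP1 fell by 0.86 ± 0.10 (0.58 and 0.79 with the correction). Of 7 tested genes with a J domain or of HSP type under other names, 4 rose (57.1%) and 2 fell (28.6%), with a median of 0.43. With the correction 3 were higher (42.9%) and 1 lower (14.3%), and with length added 2 (28.6%) and none. All calls in these lists without a correction are from the same edgeR fit, in which 73.1% of all genes were called, 35.1% higher and 38.0% lower. Over all genes 28.7% were higher and 23.3% lower with the correction, and 27.5% and 22.8% with length added.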

How the data were processed

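The authors deposited 1 gene table. Per the file headers it gives each of the 6 libraries a read count, a TPM value and an FPKM value. The deposited counts were raw whole numbers. The deposited TPM values were used for levels compared between genes, and the deposited FPKM values, proportional to TPM within a library, were not analysed further. Per the submitters' processing notes, the tools were HISAT2 2.1.0, StringTie 1.3.3b, FastQC 0.11.2 and Trimmomatic, on GRCh38; counter, strand setting and annotation were not given in the sources used here. 1 broken row was left out. Library totals were 38.45 to 40.31 (in units of 1e6 counts). Libraries of one group differed by more than counting noise (chi-square per degree of freedom 21.2 to 48.5). Counts of 1 gene in a library carry counting error as well, which is largest for the members with few counts.

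The members and lists were chosen with earlier results of these data known. Groups and replicate numbers came from the sample titles. All genes were tested together by edgeR 4.0.16 (R 4.3.3; TMM, filterByExpr with a minimum count of 10, robust quasi-likelihood F test, two-sided, Benjamini-Hochberg over the 13325 genes tested), and members were read from that fit. CPM is counts per 1e6 of the TMM-scaled library. Standard errors are the log2 fold change over the square root of F. The procedure was tested on simulated counts. GC content is that of the transcript with the longest coding sequence in GENCODE release 29, which held all 77 members. Of these, 65 had the same coordinates in the table. Whether that transcript is the one counted was not tested. In the GC correction, a natural spline of GC (5 degrees of freedom) was fitted in each library to log2 deviations from gene means, and its values entered as offsets. Of the members 26 overlap another row, 12 of them on the same strand, so their reads may be shared.

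Members named were, per compartment, the 6 with the highest mean TPM (8 in the cytosol) and the 3 top risers and 3 top fallers among those called; of each partner list up to 4 with the smallest p. Other members serve as examples of a family and were chosen after their values were seen. TPM ratios of 6 member pairs were tested by exact permutation of the 6 libraries (two-sided, scipy 1.17.1, smallest p 0.1), adjusted over the pairs. They carry no correction for GC content. Alternatives were other scalings, DESeq2 1.42.0, limma 3.58.1 with voom and on log2(TPM + 1) or log2(TPM + 0.1), no filter, GC and length correction, a replicate block and each library left out.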

Additional observations from a re-analysis of the deposited data

How the results depend on the processing

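Scaling, tool and filter moved few members: with RLE size factors, no filter, DESeq2 and limma-voom, 49, 49, 49 and 48 of the 49 called members kept call and direction, with library size without scaling 48, and on log2(TPM + 1) or log2(TPM + 0.1) 44. Over all genes 4680 were higher and 5057 lower; library size gave 4101 and 5420, and log2(TPM + 0.1) gave 3760 and 5404 with the median gene shifted by -0.12. Counting 5 members of unsure place with a compartment gave 28 cytosolic, 11 ER and 6 mitochondrial calls. DESeq2 called 1 ER member higher, where the main count is 0 (DNAJC14). Leaving out each library in turn kept 42 to 48 of the 49 calls, with 43 to 50 members called in all, and 0 to 1 ER members were higher.

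Correction for GC content changed most. It left 24 of 49 calls with their direction, GC with length 27 and GC with the replicate block 25. Genes called lower fell to 3104 with GC correction, 3032 with GC and length and 2818 with GC and block (6279 called in all); members lower were 21, 23 and 21, cytosolic members lower 10 with GC correction and 10 with GC and block, and ER members lower 6 and 6, with 1, 1 and 2 ER members higher. Among members called in the uncorrected or the altered fit, values that changed sign with GC correction, with GC and length, and with GC and block were, as log2 fold changes, 1.65, 1.57 and 1.65 for DNAJB11, 0.41, 0.14 and 0.41 for DNAJC8, 1.20, 1.04 and 1.20 for DNAJA2, 0.16, 0.0447 and 0.16 for DNAJC9, 0.39, 0.52 and 0.39 for DNAJC21, 0.31, 0.0772 and 0.30 for DNAJC24, 0.21, 0.35 and 0.21 for DNAJC6, 1.27, 1.02 and 1.29 for DNAJB7, 1.22, 1.44 and 1.22 for DNAJC15, 0.24, 0.0616 and 0.24 for HSPBAP1, and 0.55, 0.33 and 0.55 for DNAJC25. With GC correction and with GC and block alone they were -0.15 and -0.15 for DNAJB6 and -0.0177 and -0.0161 for DNAJB2. With GC and length alone they were 0.12 for DNAJC16, 0.037 for DNAJC18, 0.074 for DNAJB14 and -0.0263 for HSPB1. DNAJC17, DNAJA3, HSPA12B and DNAJC28 also changed sign with GC correction, with no call in any of these fits. The cause was not tested.

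Replicate numbers are shared between the groups, but deviations of same-numbered libraries correlated at 0.0406, 0.0575 and 0.135, and ABI2 replicate 1 correlated best with control replicate 2, so the numbers were not taken as pairs. With the replicate block 4548 genes were higher and 4929 lower, 51 members were called, and 2 ER members were higher (DNAJB12 and DNAJC14).

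Depth limits the low members: 12 were not tested, with at most 10 counts in a library, and DNAJB8, DNAJC5B, HSPB2 and HSPB3 had none. With 3 libraries a group, no TPM ratio can reach p below 0.1.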
